A study of Mus musculus with 4 samples.

Results

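Serpina1b/Sval1/Ttr cells were 573 of the 26498 cells sequenced from mouse small-intestinal crypts, the pits of the gut lining where stem cells, Paneth cells and young goblet cells lie. They were chosen by their own transcripts, counted as UMIs (unique molecular identifiers, 1 for each captured transcript). Genes whose symbols start with Defa, the alpha-defensins that fill Paneth cell granules, had to make up under 20% of the cell's UMIs. The cell needed at least 3 UMIs of Zg16, a lectin of goblet cell mucus, and at least 1 UMI of 3 or more of the 4 genes Serpina1b, C2cd4a, Sval1 and Ttr. Fewer than 4 of the 8 genes Plet1, Tac1, Tat, Lrg1, C2cd4b, Hsd11b2, Fut2 and Stc2 could have a UMI. Values of these genes chose the cells and are given below as a description, with no test. The comparison cells, called other low-Defa cells here, were the remaining 14845 cells with under 20% Defa UMIs and at least 3 Zg16 UMIs.

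The study asked what loss of the amino acid transporter Slc7a5 from the intestinal epithelium does to the crypt, and compared 2 libraries from Slc7a5 fl/fl mice with 2 from Slc7a5 IEC-KO mice. All mice were 8 weeks old and carried the floxed Slc7a5 allele. In Slc7a5 IEC-KO mice Cre driven by the villin promoter, which is active in intestinal epithelial cells, removes the floxed exon, and Slc7a5 fl/fl littermates served as controls. Live EpCAM+ CD45- cells were sorted before droplet sequencing from the 3′ end, 4 mice are named for the preparation, and how they were divided among the libraries is not stated, so p-values measure only the spread between libraries, which may be technical. Values below are given in the order Slc7a5 fl/fl replicate 1, Slc7a5 fl/fl replicate 2, Slc7a5 IEC-KO replicate 1 and Slc7a5 IEC-KO replicate 2. The libraries held 3633, 3217, 10004 and 9644 cells and 113529509, 119339206, 87922473 and 127094508 UMIs.

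Goblet cells release mucus built on the mucin Muc2, which Zg16, Fcgbp, Clca1 and the trefoil peptide Tff3 accompany, and they keep a large endoplasmic reticulum for folding and glycosylating these proteins. Serpina1b encodes a mouse alpha-1-antitrypsin, a serine protease inhibitor, and Ttr encodes transthyretin, a carrier of thyroid hormone and of retinol-binding protein. Both are best known as proteins that the liver releases into blood. C2cd4a encodes a nuclear protein with a C2-type domain, and Sval1 is named for its likeness to a seminal vesicle antigen.

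Promoters of the marker genes are shown because they are the genes that define these cells, so that the DNA next to their starts can be read beside their levels. RefSeq promoters on GRCm38.p6 were matched for 3 of the 4 markers, and the 250 bases before each start are printed below, 5′ to 3′ on the gene's strand. For Serpina1b this is the RefSeq start, which lies inside the longer GENCODE span of the gene given further on. Capitals mark matches, on either strand, to TTTATG (written CATAAA on the other strand), the core of the site of the intestinal factor CDX2, and to CAGCTG, a palindromic E-box of the kind read by basic helix-loop-helix factors. The stretches lie at chr12:103738190-103738439 (minus strand), chr9:67832331-67832580 (minus strand) and chr6:41951378-41951627 (plus strand), and none overlapped an exon of the GENCODE M21 annotation.
Serpina1b: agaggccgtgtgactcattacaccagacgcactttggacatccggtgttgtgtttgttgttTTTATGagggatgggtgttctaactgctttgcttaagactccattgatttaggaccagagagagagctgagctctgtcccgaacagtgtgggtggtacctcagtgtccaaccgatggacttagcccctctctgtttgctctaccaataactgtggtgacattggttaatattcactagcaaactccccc
C2cd4a: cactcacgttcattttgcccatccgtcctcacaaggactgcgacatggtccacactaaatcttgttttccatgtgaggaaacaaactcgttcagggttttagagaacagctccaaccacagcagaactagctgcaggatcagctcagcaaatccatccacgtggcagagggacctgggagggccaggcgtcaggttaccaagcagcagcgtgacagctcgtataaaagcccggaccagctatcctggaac
Sval1: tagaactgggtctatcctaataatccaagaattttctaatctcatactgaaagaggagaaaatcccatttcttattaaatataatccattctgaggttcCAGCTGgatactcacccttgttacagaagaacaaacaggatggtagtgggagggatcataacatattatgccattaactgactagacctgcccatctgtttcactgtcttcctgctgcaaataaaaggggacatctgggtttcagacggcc
In Serpina1b, TTTATG began 189 bases before the start. The Sval1 promoter held CAGCTG from base 151 before the start, and C2cd4a held neither motif. Of 32851 RefSeq promoters of the same length, 10.8% held TTTATG and 13% held CAGCTG. A match is a description of the letters and not a site of binding.

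The 4 markers were low in absolute terms even in the cells chosen for them. A Serpina1b/Sval1/Ttr cell held a median of 6, 6, 5 and 5 UMIs of the 4 genes together in the 4 libraries, and the cell with the most held 35. Of the 573 cells, 59 held all 4 genes and the rest exactly 3. Over the 4 libraries C2cd4a was the gene most often missing, from 51, 32, 62 and 89 cells of the libraries, and Ttr the least often, from 10, 15, 9 and 8 cells. Just outside the threshold, with 2 of the 4 markers, lay 280, 276, 612 and 663 cells, against 126, 102, 121 and 165 just inside it with 3. A further 161 cells met every condition except the one on the 8 unwanted genes.

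Serpina1b, on the minus strand of chromosome 12 at 103728156 to 103830373 (ENSMUSG00000071178, GRCm38), stood at 171, 153, 234 and 217 UMIs per 1000000 summed UMIs (CPM) in these cells. Other low-Defa cells had 44.9, 43.4, 37.6 and 37.5 CPM. In Serpina1b/Sval1/Ttr cells the Slc7a5 IEC-KO libraries were the higher pair, and in other low-Defa cells the lower pair. The rule asks for marker UMIs, and a UMI counts for more CPM in a shallow cell. Median depths of the chosen cells were 10429, 11452, 6318.5 and 8656 UMIs. The part of depth in these directions was not tested. Serpina1b is one of a row of near-identical genes, and its span contains Serpina1d (103763594 to 103773592), so reads could have been split among copies. Across all 573 cells, Serpina1a and Serpina1c had 0 UMIs, Serpina1d 5 and Serpina1e 2.

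Sval1 (ENSMUSG00000029865, chromosome 6, 41951630 to 41956098, plus strand) stood at 198, 133, 205 and 122 CPM against 28.1, 27.7, 27.0 and 27.4 CPM in other low-Defa cells. Replicate 1 of each genotype was above replicate 2, and the genotypes overlapped. Ttr (ENSMUSG00000061808, chromosome 18, 20665280 to 20674321, plus strand) stood at 171, 181, 207 and 156 CPM against 65.3, 73.0, 55.4 and 50.6 CPM. C2cd4a (ENSMUSG00000047990, chromosome 9, 67830489 to 67832330, minus strand) stood at 84.7, 101, 94.5 and 62.6 CPM against 16.2, 16.6, 10.6 and 9.67 CPM. Of the 4 genes, Ttr had the smallest ratio to other low-Defa cells in every library. Zg16 (ENSMUSG00000049350, chromosome 7, 127050156 to 127087328, minus strand) took 27492, 31609, 21979 and 23016 CPM against 14150, 13952, 12424 and 11535 CPM, so these cells were also the richer in the lectin although the rule asked for only 3 UMIs of it.

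**Figure D1:**
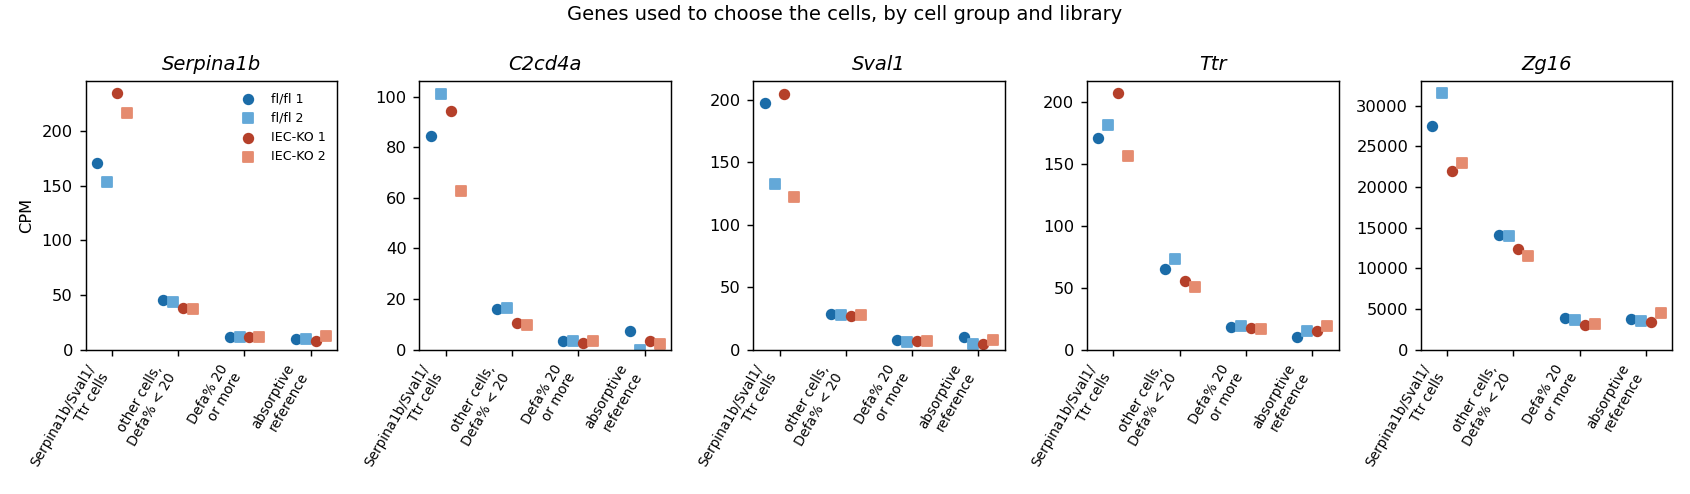
CPM on linear axes from 0 of Serpina1b, C2cd4a, Sval1, Ttr and Zg16 in Serpina1b/Sval1/Ttr cells, other low-Defa cells, cells of at least 20% Defa UMIs and an absorptive reference, with 1 point per library. The genes chose the cells, so the gap between the first group and the others is by construction, and Serpina1b lies at 153 to 234 CPM in the first group and at 37.5 to 44.9 CPM in the second.

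Most of what separates these cells from background was carried by few UMIs, so the same genes were read in cells that should lack them. The absorptive reference was the 5% of low-Defa cells with the highest enterocyte genes, and it held a Serpina1b UMI in 6.67, 10.2, 3.89 and 7.87% of cells at median depths of 9967, 11038, 5271 and 7532 UMIs. Other low-Defa cells held one in 26.4, 27.4, 16.0 and 20.6% at median depths of 10607.5, 11518, 5746 and 8084 UMIs. Sval1 had a UMI in 12.9, 14.1, 10.2 and 13% of other low-Defa cells and in 8.00, 5.08, 2.40 and 5.57% of the absorptive reference.

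The Zg16 condition did not select goblet cells. In all 4 libraries together, 23 cells with under 20% Defa UMIs had fewer than 3 Zg16 UMIs, and Zg16 stood at 3727, 3455, 3339 and 4544 CPM in the absorptive reference. The part of free RNA in these counts was not tested. A second comparison kept, on both sides, only cells in which Zg16 was at least 1% of UMIs, called Zg16-rich cells. It left 372 of the 573 Serpina1b/Sval1/Ttr cells (100, 84, 73 and 115) and 4361 other cells.

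The data went part of the way with the label of goblet cells. Defining goblet genes were high in Serpina1b/Sval1/Ttr cells, with Tff3 at 65959, 69385, 61859 and 59905 CPM and Muc2 at 6307, 5876, 7618 and 7194 CPM. Per cell, the 25 goblet genes listed for this work took a median of 1861, 1898, 1791 and 1770 of every 10000 UMIs, against 1283, 1195, 1446 and 1438 in other low-Defa cells and 171, 164, 200 and 265 in the absorptive reference. Tuft cell genes were near 0, with none of the 11 measured reaching a mean of 20 CPM, and 6 of the 9 immune genes measured had 0 UMIs in these cells. The 4 markers did not mark off a separate set of cells, however, since Tff3, Muc2 and Clca1 were higher step by step with the number of markers that a cell held.

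In Slc7a5 fl/fl replicate 1, the low-Defa cells that passed the condition on the 8 unwanted genes and held 0, 1, 2, 3 and 4 of the markers numbered 478, 483, 280, 126 and 21. Clca1, a mucus-processing protease, stood at 291, 620, 1020, 1255 and 1409 CPM across these steps. Fcgbp, which binds mucins, did not climb throughout, at 2992, 5289, 6329, 5891 and 4939 CPM, and in Slc7a5 IEC-KO replicate 1 it was highest at 1 marker and lowest at 4. Apoa1, an apolipoprotein of absorptive cells, stood at 2355, 810, 478, 337 and 769 CPM. Zg16-rich cells made up 14.2, 35.8, 52.9, 67.5 and 71.4% of the steps. The other 3 libraries climbed the same way for Zg16-rich cells, from 9.64% to 94.1%, from 20.3% to 77.8% and from 21.1% to 66.7% between 0 and 4 markers, with 17, 9 and 12 cells at 4 markers. There was no gap between 2 markers, outside the rule, and 3 markers, inside it, and a cell with more UMIs can show more markers.

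**Figure D2:**
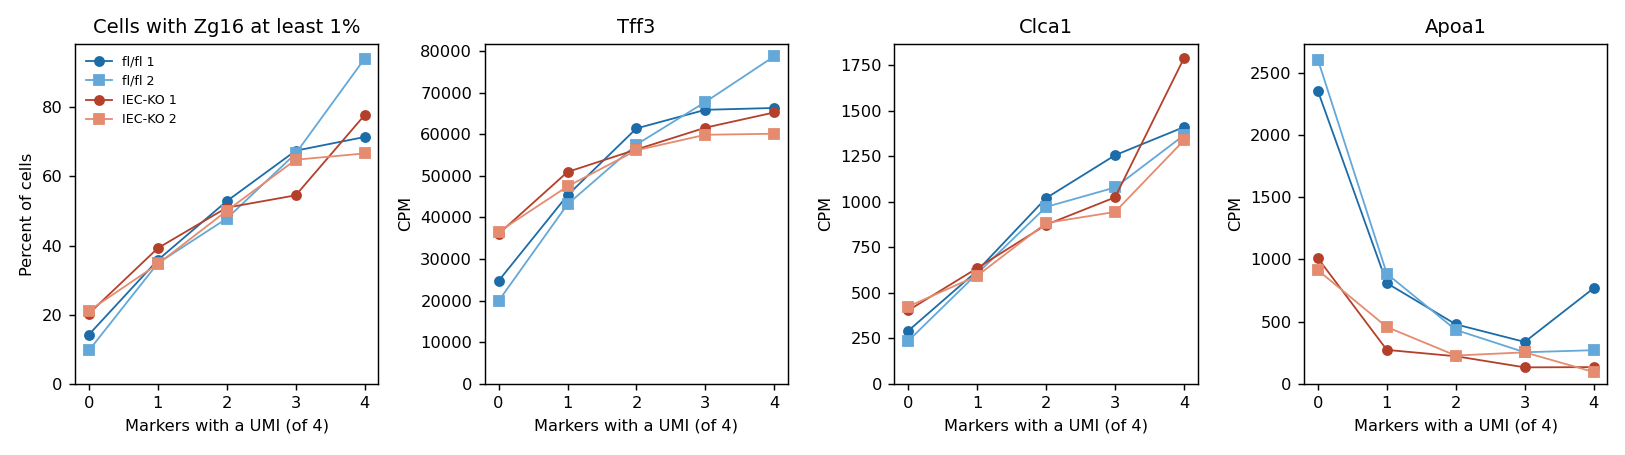
Share of Zg16-rich cells (percent) and CPM of Tff3, Clca1 and Apoa1 against the number of the 4 markers with a UMI, 1 line per library. In Slc7a5 fl/fl replicate 1 the share of Zg16-rich cells climbs from 14.2% at 0 markers to 71.4% at 4, and cells with 3 markers are inside the rule.

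Serpina1b/Sval1/Ttr cells made up 9.85% (147 of 1493) and 10.1% (119 of 1178) of low-Defa cells in the Slc7a5 fl/fl libraries, and 1.95% (130 of 6657) and 2.91% (177 of 6090) in the Slc7a5 IEC-KO libraries. Exact binomial 95% intervals were 8.38 to 11.5%, 8.44 to 12%, 1.63 to 2.31% and 2.50 to 3.36%, and cover counting error only. The means were 9.97% ± 0.181 (SD, n = 2) and 2.43% ± 0.674 (SD, n = 2), and the exact permutation test gave p = 0.333, two-sided, the smallest that 2 libraries against 2 allow. The libraries did not overlap.

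Depth differed in the same direction as this share. Serpina1b/Sval1/Ttr cells had median depths of 10429, 11452, 6318.5 and 8656 UMIs, and a shallow cell shows fewer of the markers. With every cell thinned to 3843 UMIs, the depth of the shallowest cell, the rule kept 33, 29, 51 and 46 cells, or 2.22, 2.46, 0.776 and 0.758%. With no thinning but only cells of at least 9670 UMIs, the lowest depth in Slc7a5 fl/fl replicate 2, the shares were 9.70, 10.1, 3.45 and 3.97%. Among Zg16-rich cells they averaged 19.3% ± 0.892 in Slc7a5 fl/fl and 5.03% ± 1.85 in Slc7a5 IEC-KO libraries (SD, n = 2 each), and 5.60% against 1.60% after thinning. The Slc7a5 fl/fl libraries were the higher pair under all of these settings. The share rests on the level of the markers themselves, and over all low-Defa cells each of the 4 was lower in both Slc7a5 IEC-KO libraries: C2cd4a, for example, stood at 23.0, 25.2, 12.4 and 11.3 CPM and Sval1 at 44.9, 38.3, 31.0 and 30.4 CPM. Fewer cells of this kind and less marker RNA per cell cannot be told apart here.

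**Figure D3:**
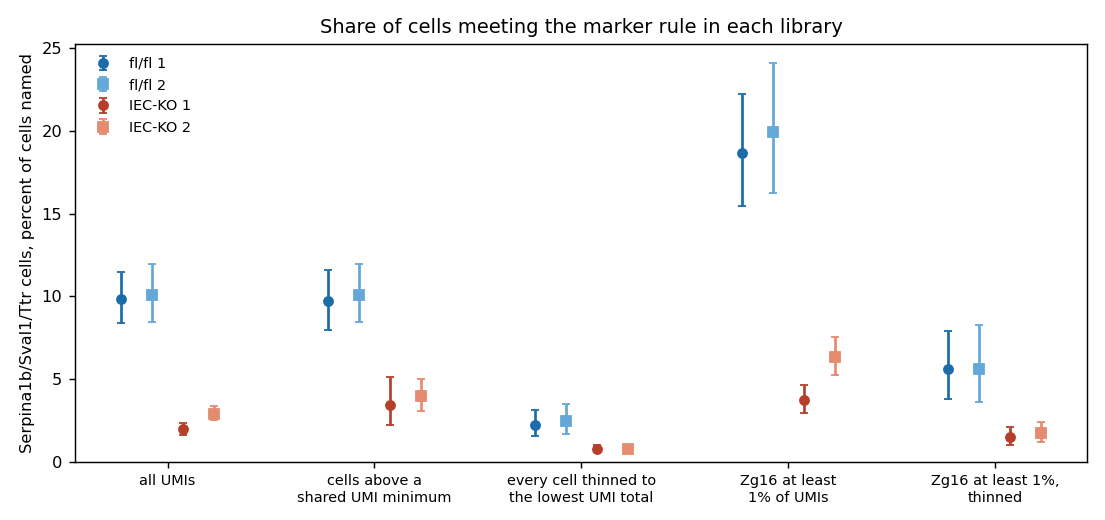
Serpina1b/Sval1/Ttr cells as a percentage of the cells named under each setting, 1 point per library with exact binomial 95% intervals. The Slc7a5 fl/fl points lie above the Slc7a5 IEC-KO points throughout, at 9.85 and 10.1% against 1.95 and 2.91% as counted and at 2.22 and 2.46% against 0.776 and 0.758% after thinning.

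Beyond the genes of the rule, UMIs summed over Serpina1b/Sval1/Ttr cells stood above those summed over other low-Defa cells in most goblet genes measured and below them in most enterocyte genes. The enterocyte gap lay in the sums and not in the typical cell, as the medians per cell given below show. These contrasts describe cells chosen by their transcripts and have no test. Of 4000 genes with a mean of at least 20 CPM in either set, none was at least 2-fold higher in every library (0%) and 25 were at least 2-fold lower (0.625%). Without the fold limit, 566 genes (14.1%) were above and 1206 (30.1%) below in every library. The median log2 ratio over all 4000 genes was -0.10.

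Clca1 led the higher genes outside the rule, at 1278, 1120, 1078 and 970 CPM against 605, 596, 548 and 561 CPM. The log2 ratios were 1.07, 0.90, 0.97 and 0.78, with 5 CPM added to both sides. Agr2, a disulphide isomerase needed to make Muc2, stood at 25460, 25384, 25293 and 22813 CPM against 16439, 15381, 16560 and 15304 CPM. Bcas1 (111, 112, 110 and 117 CPM against 61.0, 56.9, 65.7 and 65.5 CPM) and S100a14, a calcium-binding protein of epithelia, (84.1, 75.1, 93.5 and 91.9 CPM against 41.9, 40.1, 55.0 and 55.1 CPM) were higher to a like degree. Ffar2, a receptor for the short-chain fatty acids made by gut bacteria, stood at 97.6, 65.0, 125 and 114 CPM against 50.9, 44.1, 64.5 and 63.9 CPM. The higher genes also included Atp2c2, which pumps calcium and manganese into the secretory pathway, AW112010, Gng11, Rep15, Suox, Tceal8, Sh3bgrl3, Gde1, P2rx4 and Gm9844.

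Read by groups, 24 of 25 goblet genes were above other low-Defa cells in every library, with a median log2 ratio of 0.49 against -0.10 over all genes. Of all 4000 genes, 14.1% were above and 30.1% below in every library. The exception among the goblet genes was Atoh1, the factor that sets the secretory fate, at -0.09 in Slc7a5 IEC-KO replicate 2. Of 24 genes for folding and export in the endoplasmic reticulum 20 were above in every library (median 0.25), as were 12 of 16 genes of mucin glycosylation (0.36). In the sums, absorptive genes ran the other way, with 9 of 10 enterocyte genes below in every library and a median of -1.84. Per cell, however, the 12 enterocyte genes listed took a median of 16.4, 17.0, 11.1 and 11.8 of every 10000 UMIs in Serpina1b/Sval1/Ttr cells and 16.2, 16.5, 9.65 and 10.2 in other low-Defa cells, so the median chosen cell was not the lower. The highest cells differed, at 256, 36.4, 42.3 and 300.3 among the chosen and 1550.3, 1723, 1649 and 1592 among the others, which include cells of the absorptive reference. Liver and gut transcription factors were split, with 3 of 8 above and 3 below, the count below being near the share of all genes (30.1%). Cdx1 stood at 162, 166, 146 and 144 CPM against 153, 152, 137 and 127 CPM in other low-Defa cells, Hnf4g at 22.9, 24.1, 25.2 and 28.7 CPM against 38.6, 41.1, 31.7 and 33.2 CPM.

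Fabp1, a fatty acid carrier of enterocytes, stood at 339, 216, 131 and 230 CPM against 1154, 1454, 714 and 597 CPM in other low-Defa cells and 15546, 20157, 12070 and 9106 CPM in the absorptive reference. Mgst1, a microsomal glutathione transferase, stood at 45.3, 38.9, 23.1 and 19.5 CPM against 171, 180, 82.1 and 80.0 CPM. Sucrase-isomaltase (Sis), aminopeptidase N (Anpep), the bile acid carriers Fabp6 and Slc51b, the retinol carrier Rbp2, the chemokine Ccl25, Car4 and Tm4sf20 made up the rest of the 10 lowest. Fabp6 stood at 260, 213, 167 and 165 CPM against 1037, 949, 471 and 471 CPM, and at 1125, 289, 1708 and 1415 CPM in the absorptive reference. In Slc7a5 fl/fl replicate 2, other low-Defa cells held more Fabp6 than the absorptive reference.

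Between Zg16-rich cells on both sides, fewer genes reached 2-fold, and the absorptive genes stayed lower in the sums. In the median cell they were lower only in Slc7a5 fl/fl replicate 1. Of 3760 genes, none was 2-fold higher and 2 were 2-fold lower in every library, and only 1 of the 25 lower genes above was among them. The 2 were Reg1, a secreted lectin, at 33.5, 19.3, 18.4 and 23.0 CPM against 103, 90.7, 50.7 and 63.1 CPM, and the transcription factor Onecut2, at 6.17, 7.71, 8.17 and 11.0 CPM against 25.3, 27.0, 25.1 and 28.7 CPM. The goblet genes then had a median log2 ratio of 0.08, with 10 of 25 above in every library, against a median of -0.02 and 347 above (8.67%) among the 4000 genes of the first comparison. Per cell, the goblet genes took a median of 1993, 2017, 1896 and 1872 of every 10000 UMIs in the Zg16-rich chosen cells and 1983, 1876, 1896 and 1859 in the other Zg16-rich cells. Of 10 enterocyte genes 8 were below in every library, as were 388 of the 4000 genes (9.7%), with a median of -0.75 in place of -1.84. Per cell, the enterocyte genes took a median of 17.3, 18.6, 13.8 and 12.3 of every 10000 UMIs in the Zg16-rich chosen cells and 17.7, 18.1, 11.9 and 12.1 in the other Zg16-rich cells, whose highest cells reached 772, 477, 480 and 758. Of 4 genes that vary along the intestine 3 were below, with a median of -0.57. The genes with the highest ratios between Zg16-rich cells included Ceacam10 (157, 131, 123 and 118 CPM against 112, 101, 78.0 and 76.7 CPM), Atp2c2, S100a14, Gng11, H2-Aa, Cd177, Ffar2, Tceal8 and Gde1. All of these were below 2-fold in at least 1 library. Against all other low-Defa cells, H2-Aa and Cd177 had not been above in every library, with H2-Aa at log2 ratios of 0.0047, -0.46, -0.48 and -0.19 and Cd177 at -0.10 in Slc7a5 IEC-KO replicate 2.

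**Figure D4:**
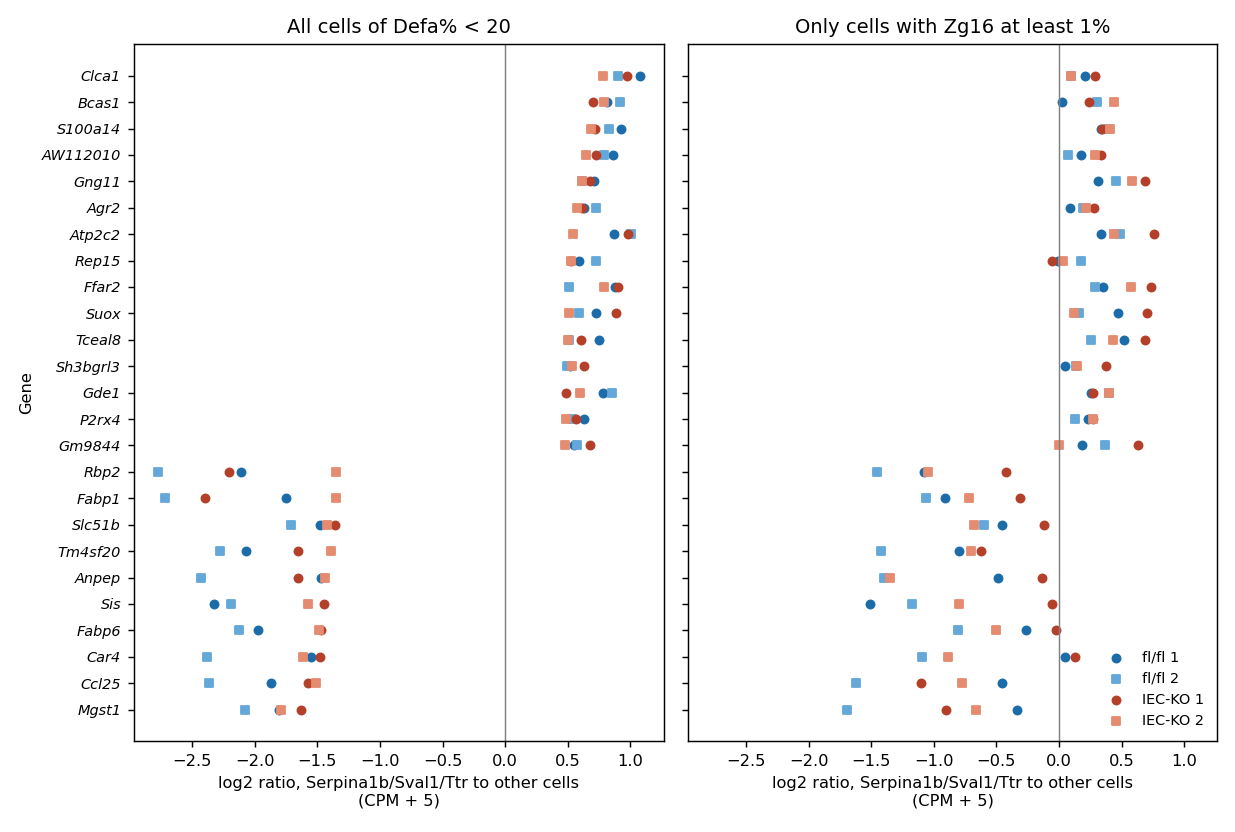
Log2 ratio of Serpina1b/Sval1/Ttr cells to the comparison cells for the 15 highest and 10 lowest genes outside the rule, 1 point per library, against all other low-Defa cells (left) and between Zg16-rich cells (right). Clca1 lies between 0.78 and 1.07 on the left, and Mgst1 between -2.08 and -1.63.

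The chosen cells were slightly shallower than their comparison cells in Slc7a5 fl/fl and deeper in Slc7a5 IEC-KO libraries, and their mitochondrial share was close. Median depths were 10429, 11452, 6318.5 and 8656 UMIs in the chosen cells and 10607.5, 11518, 5746 and 8084 UMIs in other low-Defa cells. Median genes per cell were 2256, 2302, 1650 and 2042 in the chosen cells and 2443, 2571, 1567 and 1951 in other low-Defa cells. The chosen cells were thus lower in Slc7a5 fl/fl and higher in Slc7a5 IEC-KO libraries. Mitochondrial genes took a median of 2.25, 2.14, 1.71 and 1.80% of UMIs in Serpina1b/Sval1/Ttr cells and 2.43, 2.43, 1.77 and 1.76% in other low-Defa cells. A simulated-doublet score marked 0, 0, 15 and 16 of the chosen cells. Without the marked cells, all low-Defa cells, the chosen included, went from 1493, 1178, 6657 and 6090 to 1484, 1177, 6172 and 5669. Libraries shared at most 132 cell barcodes, and 1 barcode was shared among the chosen cells, between the Slc7a5 IEC-KO replicates.

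The knockout itself could not be read at Slc7a5, which had 7, 4, 4 and 10 UMIs in these cells, 4.12, 2.68, 4.20 and 5.74 CPM. The counts come from the 3′ end of the transcript and the deleted exon lies at the 5′ end, so they check nothing. Slc3a2 (ENSMUSG00000010095, chromosome 19, 8706882 to 8723369, minus strand), the heavy chain that pairs with Slc7a5 at the membrane, stood at 43.5, 32.2, 105 and 115 CPM. It was higher in the Slc7a5 IEC-KO libraries by 1.53 on the log2 scale (SE 0.156, adjusted p = 1.07e-09 by edgeR's quasi-likelihood test with Benjamini-Hochberg adjustment), and the libraries did not overlap. The call was lost in 1 of 13 alternatives, with the cells of all 4 markers (edgeR adjusted p = 0.168), and adjusted p ran from 1.59e-19 to 0.168 over them.

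Between genotypes, UMIs summed over the Serpina1b/Sval1/Ttr cells of each library were fitted for all 7237 genes with enough counts, and 341 (4.71%) passed an adjusted p of 0.05, 221 higher (3.05%) and 120 lower (1.66%) in Slc7a5 IEC-KO. The sums held 1700836, 1492275, 952105 and 1740847 UMIs. Genes of the integrated stress response, the programme that Atf4 runs when amino acids are short or proteins misfold, were higher in Slc7a5 IEC-KO: with only genes of at least 10 UMIs in every library's sum, 15 of the 16 tested passed as higher, against 184 of 5213 genes in all, and none as lower. Under the usual filter all 22 tested of the 25 listed passed, but Trib3, Chac1, Atf3, Aldh1l2, Slc7a11 and Cth had fewer than 10 UMIs in at least 1 Slc7a5 fl/fl library, and a gene that enters the test through the group where it is high had to differ. Summed over the list, they took 1214 and 1114 CPM in Slc7a5 fl/fl and 4292 and 4128 CPM in Slc7a5 IEC-KO cells. Other low-Defa cells had 1006, 967, 4538 and 4347 CPM.

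Chac1, which degrades glutathione, stood at 1.74, 2.11, 69.3 and 74.3 TMM-scaled CPM (CPM scaled by edgeR's TMM factors, as for the other genes of this paragraph), and rose by 5.18 on the log2 scale (SE 0.323). Trib3, a pseudokinase that feeds back on Atf4, stood at 1.74, 3.52, 69.3 and 69.6 CPM and rose by 4.73 (SE 0.313). Chac1 had 3 and 3 UMIs in the Slc7a5 fl/fl sums, and Trib3 had 3 and 5. Both entered the test through the Slc7a5 IEC-KO libraries and had to differ, so their folds are a description. Phgdh, the first enzyme of serine synthesis, stood at 6.38, 12, 98.7 and 107 CPM and rose by 3.53 (SE 0.216). In each of these 3 genes both Slc7a5 IEC-KO libraries were above both Slc7a5 fl/fl libraries by a wide margin. The next enzymes of serine synthesis, Psat1 and Psph, rose by 2.17 and 2.70, and asparagine synthetase, Asns, by 1.31 from 86.4 and 77.1 CPM to 207 and 203 CPM. Atf4 itself rose by 0.81, from 134 and 124 CPM to 227 and 228 CPM.

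The same list held the stress factors Ddit3 (log2 fold change 2.70) and Atf5 (3.22), the cystine carrier Slc7a11 (3.02), the cysteine-making enzyme Cth (2.99) and the translation repressor Eif4ebp1 (1.85). Outside the list, Gdf15, a hormone of cell stress, stood at 0, 0.703, 17.8 and 14.5 TMM-scaled CPM and the peptide Adm2 at 2.32, 1.41, 35.7 and 46.4 TMM-scaled CPM. Aldh1l2, a mitochondrial folate enzyme that is in the list, went from 1.16 and 0 to 17.8 and 12.8 TMM-scaled CPM. These 3 genes held at most 4 UMIs in either Slc7a5 fl/fl library and entered the test through the Slc7a5 IEC-KO libraries, so that they had to differ. The call for Atf3 depended on 1 library: it passed with all 4 (log2 fold change 3.59, edgeR adjusted p = 0.00107) and not without Slc7a5 fl/fl replicate 1 (edgeR adjusted p = 0.128). Over the 7 alternatives that could test it, edgeR adjusted p ran from 0.000141 to 0.128.

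Among 10 amino acid transporters tested, 5 rose and none fell, with a median log2 fold change of 0.42 against -0.01 over all genes. Of all genes tested, 3.05% were called higher and 1.66% lower. Besides Slc3a2 these were Slc1a4 (2.02), which carries small neutral amino acids, the cationic amino acid carrier Slc7a1 (0.83), and the glutamine carriers Slc38a2 (0.74) and Slc1a5 (0.54). The metal-binding protein Mt1 rose by 2.12 (SE 0.105), from 214 and 201 to 927 and 890 TMM-scaled CPM. Of 83 ribosomal protein genes 50 were higher (against 3.05% of all genes), with a median of 0.35, but 1 was called higher without Slc7a5 fl/fl replicate 1 and 6 without Slc7a5 fl/fl replicate 2.

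Adig, Try5 and Tac4, outside the lists, had 0 UMIs in the Slc7a5 fl/fl cells. Adig had 35 UMIs in the Slc7a5 IEC-KO cells, Try5, a trypsinogen, had 32, and Tac4, a tachykinin, had 31. With the Slc7a5 fl/fl group set to its floor of 3 UMIs, these are at least 13.8-fold, 12.6-fold and 12.3-fold higher. All 3 genes entered the test through the Slc7a5 IEC-KO libraries and had to differ, so these folds are a description. Their UMIs lay in 13 and 11 cells, 10 and 14 cells, and 15 and 10 cells of the 2 Slc7a5 IEC-KO libraries. Other low-Defa cells held 1, 3, 861 and 1087 UMIs of Adig and 0, 0, 1179 and 1388 UMIs of Try5. They held 2, 2, 469 and 552 UMIs of Tac4, and Defa-rich cells of the Slc7a5 IEC-KO libraries held 68.6 and 52.2 CPM of Try5, so none of the 3 was particular to the chosen cells. The part of free RNA in these low counts was not tested.

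**Figure D5:**
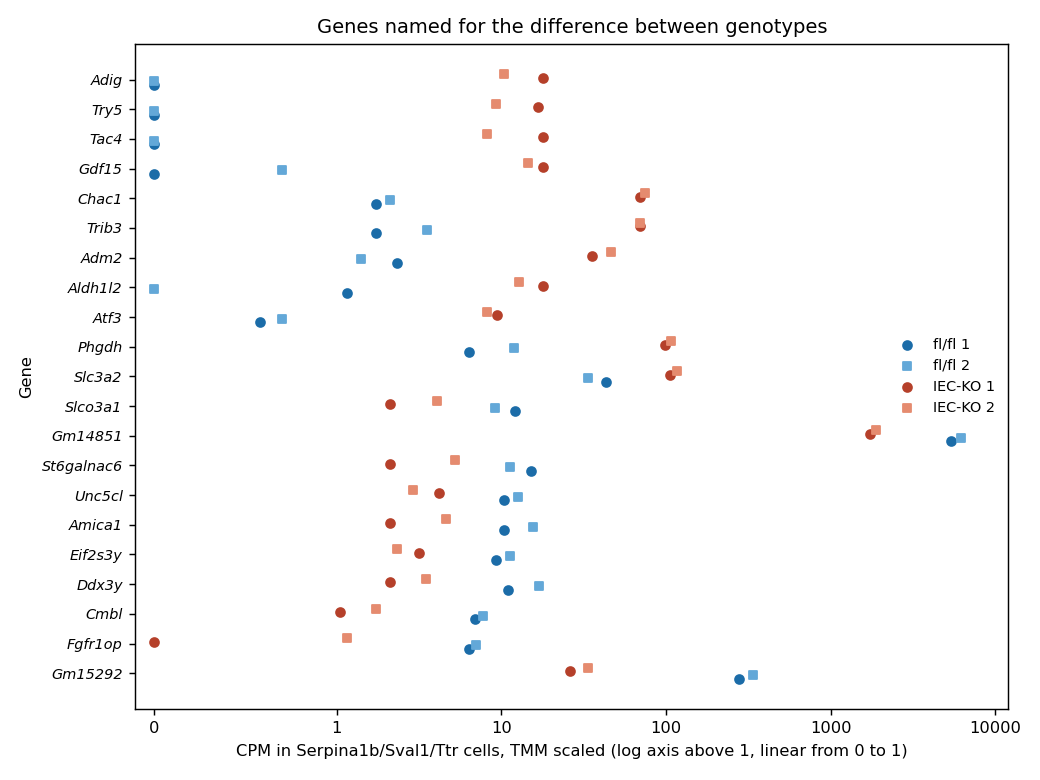
TMM-scaled CPM, on an axis linear near 0 and logarithmic above, of Slc3a2 and of the 10 largest rises and 10 largest falls between genotypes in Serpina1b/Sval1/Ttr cells, 1 point per library. Chac1 lies at 1.74 and 2.11 CPM in Slc7a5 fl/fl and at 69.3 and 74.3 CPM in Slc7a5 IEC-KO libraries, and Gm15292, an alpha-defensin, at 277 and 338 against 26.2 and 33.7 CPM.

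Mucus genes moved little between genotypes within these cells. Of the 25 goblet genes, the receptor component Ramp1 and the transcription factor Foxa3 were higher (both by 0.45), none was lower, and the median log2 fold change was 0.04. Over all genes tested, 3.05% were called higher and 1.66% lower, with a median of -0.01. Muc2 was at 0.27 (edgeR adjusted p = 0.147), Tff3 at -0.17 (edgeR adjusted p = 0.536) and Clca1 at -0.25 (edgeR adjusted p = 0.171), none past the threshold. Elsewhere in the secretory lists, Herpud1, which serves degradation of misfolded proteins, rose by 0.51, while Sdf2l1, a chaperone partner, fell by 0.40 (a call in 5 of 13 alternatives), the membrane mucin Muc13 by 0.39 and the sialyltransferase St3gal4 by 0.60.

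Of 13 genes tested in the list of acute phase and mucosal defence, 5 fell and none rose, with a median of -0.51. Among all genes tested, 1.66% were called lower and 3.05% higher, with a median of -0.01. Reg3g, a lectin that kills Gram-positive bacteria, stood at 8678, 9057, 5475 and 4306 TMM-scaled CPM and fell by 0.86 on the log2 scale (edgeR adjusted p = 2.84e-07). Reg3b, its relative, stood at 5205, 4952, 2061 and 1847 TMM-scaled CPM and fell by 1.38 (edgeR adjusted p = 1.4e-13). Neither overlapped between genotypes, and both passed in the same direction in all 13 alternatives. The other falls were Reg3a (-1.64), the ribonuclease Ang4 (-1.35) and Dmbt1 (-0.68), a scavenger receptor of mucosal surfaces.

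RNA of other cell types moved with genotype in the same cells, where 1.66% of all genes tested were called lower and 3.05% higher. Of 8 Paneth genes 4 fell, namely lysozyme (Lyz1, -1.01), Ang4, Mptx2 (-1.48) and Clps (-0.94), and 2 rose, Nupr1 (1.90) and Pnliprp2 (1.04). Nupr1 is also in the list of the integrated stress response and Ang4 in that of mucosal defence, so each is counted in both. For Lyz1 and Mptx2 the absorptive reference showed the same direction, at 7322, 7565, 3165 and 3728 CPM and at 1349, 1249, 481 and 570 CPM, without TMM scaling. Of 10 enterocyte genes 4 fell, Apoa1 (-0.77), Fabp1 (-0.58), Fabp2 (-0.36) and Slc5a1 (-1.37), and without Slc7a5 fl/fl replicate 1 none did. The hormone genes Gip (1.53) and Pyy (1.36) rose, and 1 cell of Slc7a5 IEC-KO replicate 1 held 779 of the 1057 Gip UMIs in the chosen cells of that library. The part of free RNA and of single cells of other types in these values was not tested. The 14 proliferation genes and 6 MHC class II genes tested gave no call in either direction, nor did the 1 tuft gene of 11 that could be tested.

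The largest falls by the naming rule lay mostly outside these lists. The alpha-defensins Gm15292 (RefSeq name Defa40) and Gm14851 (Defa38), whose symbols the Defa rule did not read, stood at 277, 338, 26.2 and 33.7 TMM-scaled CPM and at 5340, 6167, 1740 and 1894 TMM-scaled CPM, falls of 3.31 and 1.66 on the log2 scale. Fgfr1op (Cep43, -3.02), Cmbl (-2.23), Amica1 (Jaml, -1.74), Unc5cl (-1.74), St6galnac6 (-1.68) and Slco3a1 (-1.66) followed. The Y-linked genes Ddx3y (11.0, 16.9, 2.1 and 3.48 TMM-scaled CPM, -2.16) and Eif2s3y (-1.92) were also among them, and the X-inactivation transcript Xist, looked up after these values were seen, had 158, 158, 500 and 604 CPM without TMM scaling. The named falls of this paragraph other than the 2 alpha-defensins had fewer than 10 UMIs in each Slc7a5 IEC-KO library. They entered the test through the Slc7a5 fl/fl libraries, where they were high, so that they had to differ. The absorptive reference held 250, 252, 22.4 and 30.6 CPM of Gm15292 and 5411, 5635, 1638 and 2072 CPM of Gm14851, without TMM scaling. Defa-rich cells held 51588, 51255, 15893 and 13857 CPM of Gm14851, so neither fall was particular to the chosen cells. The part of free RNA in these 2 falls was not tested. Only the 2 alpha-defensins kept their calls whichever library was left out. Cmbl, Eif2s3y and Slco3a1 lost theirs without any 1 of the 4, Unc5cl without any but Slc7a5 IEC-KO replicate 1, Amica1 without Slc7a5 fl/fl replicate 2 or Slc7a5 IEC-KO replicate 1, St6galnac6 without replicate 1 of either genotype, Fgfr1op without either Slc7a5 IEC-KO replicate and Ddx3y without Slc7a5 fl/fl replicate 2, with edgeR adjusted p between 0.055 and 0.555. The study's methods describe the genotypes as matched for sex and age, and the sex of the mice in each library is not given. Levels of sex-linked genes moved with genotype, and their part in the other differences was not tested.

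Whether the genotype difference in Serpina1b/Sval1/Ttr cells departed from that in other low-Defa cells was tested as a term of its own over 10906 genes, where 154 (1.41%) passed, 45 with a more positive and 109 with a more negative difference in the chosen cells. With scaling by library size alone, which moved the median of all genes by 0.15 to the positive side, the split was 235 and 39, with 8 goblet genes more negative and 8 proliferation genes more positive. Of the genes of the integrated stress response none was more positive and 1, Nupr1 (-0.82), more negative. Goblet genes were more negative in 16 of 25 (median -0.39, against -0.01 over all genes), and 6 of 14 proliferation genes more positive (median 0.72). Of 8 Paneth genes 7 were more negative, Nupr1 included. Muc2 gives the pattern in numbers, at 6307, 5876, 7618 and 7194 CPM in the chosen cells and 3509, 3362, 5373 and 5568 CPM in other low-Defa cells, a term of -0.56 (SE 0.0602, edgeR adjusted p = 7.88e-07). The chosen cells thus held more Muc2 in every library, with the smaller genotype difference. Among proliferation genes the term was 0.93 for Mki67 and 0.91 for the topoisomerase Top2a. Between Zg16-rich cells the goblet, mucus, proliferation and Paneth lists had no call, and 8 genes passed in all. The lists do not hold every gene of their kinds. Among the 8 were the alpha-defensin Gm15284 and Cdca3, a gene named for the cell division cycle, both outside these lists.

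Reg3g and Reg3b were among those 8. In Serpina1b/Sval1/Ttr cells, Reg3g stood at 8802, 8631, 5477 and 4262 CPM, and in other low-Defa cells at 6360, 6668, 6593 and 6490 CPM, a term of -1.03 (SE 0.0718, edgeR adjusted p = 5.02e-10). Reg3b stood at 5279, 4720, 2062 and 1828 CPM against 6155, 6356, 3769 and 3526 CPM, a term of -0.75 (SE 0.0631, edgeR adjusted p = 1.75e-08). The genotypes were separate in the chosen cells for both lectins, and for Reg3g the other low-Defa cells lay between 6360 and 6668 CPM. In other Zg16-rich cells the genotypes were separate too, with Reg3g at 7189, 7520, 4420 and 4650 CPM and Reg3b at 5014, 4990, 2080 and 2371 CPM. Zg16-rich chosen cells held 9253, 9164, 4551 and 4180 CPM of Reg3g and 5398, 5237, 2121 and 1704 CPM of Reg3b. Between Zg16-rich cells the terms were smaller, at -0.47 for Reg3g (edgeR adjusted p = 0.0032) and -0.41 for Reg3b (edgeR adjusted p = 0.027). The absorptive reference, at 20041, 18047, 14956 and 13287 CPM of Reg3b, was richer in it than the chosen cells. The remaining 6 genes were Cdca3 (1.60), Myl7 (1.39), 2810417H13Rik (0.90), Ccdc34 (0.79), 2210407C18Rik (-0.65) and Gm15284 (Defa30, -0.40).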

How the data were processed

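UMI counts of 27998 genes per cell barcode were used as the authors deposited them, 1 matrix for each of 4 libraries and with no normalization. The submitters' processing notes name Cell Ranger 2.1.1 and mm10, while the study's methods name another version, and which made the files is unsure. Low-quality and immune cells that the study removed are not marked in the files and were kept. Lowest depths per cell were 8909, 9670, 3843 and 5858 UMIs.

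Cells were chosen by the rule of the report on raw UMIs (13 symbols start with Defa), and CPM is summed UMIs of a cell group per 1000000. The cells, the 26 gene lists and the tests were chosen with earlier results of these data known. Cell groups were compared as log2 ratios per library with 5 CPM added, over genes of a mean of at least 20 CPM. Genotypes were compared on UMIs summed per library and cell group with edgeR 4.0.16 in R 4.3.3 (TMM scaling, filterByExpr, quasi-likelihood test, Benjamini-Hochberg adjustment over all genes tested, threshold 0.05), with no replicate block, and the term for the chosen against other low-Defa cells came from 1 fit of 8 sums. A library gives 1 sum to each cell group in that fit, so its sums share a source. Shares were compared by exact permutation (scipy 1.17.1). Doublets were called at 0.8% per 1000 cells with 30 neighbours on simulated pairs and were kept. On simulated counts with 50 genes changed at each fold, the genotype fit recovered 58% of 2-fold and 100% of 4-fold rises and 48% and 72% of falls of the same size, with 7 false calls among 7143 genes, and the term recovered 28%, 68%, 14% and 50%, with 1 false call among 10807. The simulation drew every sum independently from a pooled profile. Its dispersion (spread beyond counting error) was set above the 0.00504 and 0.0013 of the real fits, so these rates need not be theirs.

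Named genes were those of the rule, members of the lists, Slc7a5 and Slc3a2, the 15 highest and 10 lowest by the ratio nearest 0 over libraries, and the 10 largest rises and falls (5 each for the term) among called genes whose libraries did not overlap. Alternatives were DESeq2 1.42.0, scaling by library size, no filter on low counts or at least 10 UMIs in every sum, cells thinned to 3843 UMIs, all 4 markers, other Zg16 and Defa limits, doublets left out, pseudocounts of 1 and 10 CPM, a replicate block and each library left out. Zg16-rich cells were added after the data were seen.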

Additional observations from a re-analysis of the deposited data

Results flagged for a closer look

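For 10 genes the genotype difference (log2, Slc7a5 IEC-KO over Slc7a5 fl/fl) in Serpina1b/Sval1/Ttr cells minus that in other low-Defa cells passed the threshold in a test of the difference itself. They are the 5 most positive and 5 most negative such terms among genes whose genotypes did not overlap in the chosen cells. On the positive side were Sgol1 (RefSeq name Sgo1, 1.71, edgeR adjusted p = 0.0115), Tk1 (1.48, edgeR adjusted p = 0.00227), the DNA repair and replication nuclease Fen1 (1.13, edgeR adjusted p = 0.0372), the nuclear envelope protein Tmpo (0.93, edgeR adjusted p = 0.00168) and Id2, an inhibitor of helix-loop-helix factors (0.87, edgeR adjusted p = 0.0135). Tk1, which makes thymidine nucleotides for DNA synthesis, stood at 22.2, 13, 24.9 and 25.3 TMM-scaled CPM in the chosen cells and 42.8, 43.1, 21.6 and 21.5 in other low-Defa cells, so that the larger part of its term lay in the other cells.

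On the negative side were St6galnac6 (-1.92, edgeR adjusted p = 0.0323), Mettl21b (Eef1akmt3, -1.85, edgeR adjusted p = 0.00663), Gna14 (-1.55, edgeR adjusted p = 0.0493), the homeobox gene Hoxb9 (-1.37, edgeR adjusted p = 0.00901) and the lysosomal protease Lgmn (-1.19, edgeR adjusted p = 0.00311). St6galnac6, Mettl21b and Gna14 had 2, 5 and 5 UMIs in the chosen cells of Slc7a5 IEC-KO replicate 1. They could not be tested with at least 10 UMIs in every sum, so their terms rest on few UMIs. Hoxb9 stood at 27.0, 22.4, 14.1 and 11.4 TMM-scaled CPM in the chosen cells and 9.72, 9.77, 12 and 12.8 in other low-Defa cells. Lgmn stood at 27.6, 24.6, 29.2 and 33.7 TMM-scaled CPM in the chosen cells and 18.0, 18.1, 50.7 and 49.9 in other low-Defa cells. It was thus not lower in the chosen cells of Slc7a5 IEC-KO libraries, and the larger part of its term lay in the other cells. With cells thinned, 8 of the 10 lost the call, all but Tmpo (edgeR adjusted p = 0.029) and St6galnac6 (edgeR adjusted p = 0.0485), and all 10 lost it with the cells of all 4 markers. Tk1, Lgmn and no other of the 10 kept their calls whichever library was left out, but both were among the 8 lost with thinning (edgeR adjusted p = 0.104 and 0.581). The call was lost without Slc7a5 IEC-KO replicate 2 for Sgol1, Fen1, Tmpo, Id2, St6galnac6, Gna14 and Hoxb9, without Slc7a5 IEC-KO replicate 1 for St6galnac6 and Gna14, without Slc7a5 fl/fl replicate 1 for Sgol1, Fen1, St6galnac6, Mettl21b and Hoxb9, and without Slc7a5 fl/fl replicate 2 for Fen1, Id2 and Gna14. None of the 10 passed between Zg16-rich cells, where edgeR adjusted p ran from 0.446 to 1. The proglucagon gene Gcg had the most negative term of all (-2.76, edgeR adjusted p = 0.000444) and is named after its values were seen, since the genotypes overlapped in the chosen cells, at 6.59, 80.2, 18.4 and 27.7 TMM-scaled CPM.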

How the results depend on the processing

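The difference in share, -7.54 percentage points (Slc7a5 IEC-KO minus Slc7a5 fl/fl), kept its sign in every setting run: -1.57 with cells thinned, -6.18 with the common lower UMI limit, -2.31 as a share of all cells, -1.26 with all 4 markers, -14.3 among Zg16-rich cells, -4.01 among these after thinning, and -8.02 to -7.07 leaving out each library. The 341 genes called between genotypes became 104 by DESeq2 (2765 genes with an adjusted p), 173 thinned, 26 with all 4 markers, 189 between Zg16-rich cells and 168 to 379 leaving out each library (168 without Slc7a5 fl/fl replicate 1, 212 without replicate 2). The 154 calls of the term became 274 with library size alone, 234 with no low-count filter, 82 by DESeq2 (1207 genes), 79 thinned, 27 with all 4 markers, 8 between Zg16-rich cells, and 85 to 238 leaving out each library (85 without Slc7a5 IEC-KO replicate 2, 238 without Slc7a5 fl/fl replicate 1). The 25 genes 2-fold lower in every library became 2 between Zg16-rich cells and 25 to 51 leaving out each library (51 without Slc7a5 IEC-KO replicate 2). The cause was not tested, apart from fewer cells or UMIs entering where cells were thinned or dropped. With a replicate block, calls numbered 338 between genotypes and 254 for the term, and same-numbered libraries deviated together with r = 0.0124 over 7260 genes, so the numbers were not taken to pair them. Among named genes, 166 repeats of the genotype difference that gave an adjusted p stayed on their side of the threshold and 28 lost the call, with no change of sign. For the term 80 stayed, 46 lost the call and 1 changed sign, Gna14 (0.037) between Zg16-rich cells. Depth limits genes of few UMIs most: the SE of the log2 fold change was 0.715 for Gdf15 and 0.105 for Mt1.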

Other observations

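Other lists gave few calls between genotypes in Serpina1b/Sval1/Ttr cells, where 3.05% of all genes tested were called higher and 1.66% lower. Against these shares a single call says little about a list. Of 4 stem cell genes tested, the sodium-potassium-chloride carrier Slc12a2 fell by 0.42, with no call when scaled by library size alone. Of 4 genes that vary along the intestine, Fabp6 fell by 0.53 and Fabp1 fell too. Mt1 was the single rise among 3 metallothioneins, and Atf3 the single call among 14 genes of dissociation stress. Atf3 held 1 UMI in each Slc7a5 fl/fl library, so that it had to differ. Its call was lost without Slc7a5 fl/fl replicate 1. No call was made among 6 genes of the Ccl9 and Mt3 list or among 5 interferon-stimulated genes, and 1 of 13 secretory lineage factors and 1 of 12 liver and gut factors, Foxa3 in both, rose. Of the MHC class II genes, which serve peptide presentation to T cells, the invariant chain Cd74 stood at 368, 300, 299 and 303 CPM in the chosen cells against 527, 492, 476 and 419 CPM in other low-Defa cells, and H2-Ab1 at 175, 149, 174 and 153 CPM against 171, 157, 169 and 162 CPM. Cd74 was below the other cells in every library, and H2-Ab1 was not. The direction turned between Zg16-rich cells, where the 6 MHC class II genes had a median log2 ratio of 0.30, with 2 above and 0 below in every library, in place of -0.43 with 3 below. Of all 4000 genes, 8.67% were above and 9.7% below between Zg16-rich cells, and 30.1% were below in the first comparison.

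Of the 8 genes that the rule limits, several were still frequent in the chosen cells. Tac1, the precursor of substance P, had a UMI in 65.3, 61.3, 48.5 and 55.4% of Serpina1b/Sval1/Ttr cells and in 33.4, 34.3, 32.7 and 43.7% of other low-Defa cells. Hsd11b2, which inactivates glucocorticoids, had one in 55.8, 52.1, 36.2 and 34.5% against 35.1, 34.3, 20.9 and 27.3%. Stc2, a stanniocalcin, had one in 2.72, 3.36, 20.8 and 27.1% of the chosen cells, the Slc7a5 IEC-KO libraries being the higher pair. These shares are set in part by the rule and by depth and have no test.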
